A study of Mus musculus with 7 samples.

Results

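Colonic macrophages labelled CX3CR1hi from Il10-deficient mice (IL10-/- CX3CR1gfp/+, 1 array) were set against cells with the same sort label from control mice (wild type, CX3CR1gfp/+, 1 array). These are 2 of the 7 arrays of the series, and they were chosen by sort label and genotype, not by a measured value. Both groups carry the CX3CR1gfp/+ reporter, in which GFP replaces a copy of Cx3cr1. All mice were C57BL/6 and 6 weeks old, and the cells were sorted by flow cytometry from the lamina propria, the layer beneath the colonic epithelium. The Il10 deficiency is labelled for the mice as a whole, with no cell type named. The other 5 arrays carry the sort label resident, 3 from CX3CR1gfp/+ mice and 2 from CX3CR1cre:IL10Raflox/flox mice, in which Cre expressed from Cx3cr1 deletes Il10ra, and no array carries that Cre without the deletion. The labels do not say how many animals gave each RNA or whether the mice had colitis.

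IL-10 is an anti-inflammatory cytokine that holds macrophage activation in check. It binds a receptor of the chains Il10ra and Il10rb and signals through the kinases Jak1 and Tyk2 to the transcription factor Stat3. Colonic resident macrophages both make IL-10 and respond to it, and mice that lack IL-10 are a standard model of spontaneous inflammation of the large bowel. CX3CR1, the receptor for fractalkine, is abundant on these cells.

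Gene levels are log2 values as deposited, so a difference of 1 is a 2-fold change. The comparison covers genes whose probe set is assigned to a single gene symbol and whose value is over 7 in at least 1 of both arrays. Of 19938 genes measured, 8561 (42.9%) met this limit. A gene over it in only 1 array can only be higher in that array, so counts within lists follow in part from the limit. Among genes with at least a 2-fold difference, just inside it lay F10, Mfsd2a and Dhrs9, whose brighter values were 7.01, 7.02 and 7.02, and just outside it Ghr, Pcsk5 and Reg1 at 7.00, 6.99 and 6.98. With 1 array a side there is no replicate and no test, so no difference below has a p-value. The only spread between control arrays comes from the 3 resident control arrays, and these differ from both CX3CR1hi arrays in more than their label. The quartiles and maxima of the values differed between the labels as well, and are given with the processing below. The female-specific transcript Xist stood at 12.32 in the control and 12.30 in the Il10-deficient CX3CR1hi array, and at 4.51 in all 5 resident arrays. The Y-linked genes Eif2s3y, Kdm5d and Uty ran the other way, at 4.31 to 4.67 in both CX3CR1hi samples and 7.24 to 9.18 in the resident ones. The extraction protocol also names another RNA kit for samples 1 and 2 than for the rest, which in the order of the series are the CX3CR1hi arrays, so sort label, kit and sex cannot be told apart between the labels. Sex-linked transcripts were alike in both CX3CR1hi arrays.

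Both CX3CR1hi arrays carried the defining transcripts of macrophages. All 13 measured macrophage markers were over the limit, with a median log2 difference of 0.18 and none past 2-fold. Cx3cr1 was at 11.29 in the control and 11.45 in the Il10-deficient array, the growth factor receptor Csf1r at 12.18 and 12.42, and the macrophage surface receptor Adgre1 at 12.31 and 12.42. The Fc receptor Fcgr1, which marks macrophages apart from dendritic cells, was at 10.13 and 10.63. Epithelial transcripts were abundant as well. The mean log2 level of the 20 measured epithelial markers was 11.00 in the control and 10.39 in the Il10-deficient array, against 10.05 to 10.53 in the resident control arrays. Epcam, an adhesion protein of epithelial cells, was at 11.65 and 10.78. In bulk RNA, fewer cells of a type and less RNA per cell cannot be told apart.

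The Il10 transcript itself was at 11.04 in the control array and 10.75 in the array labelled Il10-deficient, a log2 difference of -0.28. In the resident control arrays it was at 9.76, 9.83 and 10.86. Where the probes of this set lie relative to the deleted part of the gene was not given in the sources used here. This level therefore checks nothing about the genotype, and every direction below rests on the label of that array. The receptor genes were not far apart either. Il10ra was at 11.32 and 11.61, Il10rb at 11.25 and 11.34, Stat3 at 10.48 and 10.65 and its feedback target Socs3 at 10.66 and 10.94. Of the 7 genes of the receptor pathway, 0 were past 2-fold, with a median difference of 0.21 against 0.085 over all 8561 genes. Among 11 genes known to be induced by IL-10, the median was 0.20, and 1 was past 2-fold, the heme-degrading enzyme Hmox1, higher in the Il10-deficient array at 10.92 against 9.92. The resident control arrays lay at 10.96 to 11.04 for Hmox1, near the Il10-deficient array and above the control CX3CR1hi array. They differ from both CX3CR1hi arrays in sort label, kit and sex. Nfil3 and the IL-1 receptor antagonist Il1rn were 0.53 and 0.51 higher.

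Across the 8561 genes both arrays were alike, with a Pearson r of 0.946 across genes, which are not independent replicates. Of these genes 5377 (62.8%) were higher by any amount in the Il10-deficient array and 3184 lower. A total of 122 genes (1.43%) were at least 2-fold higher in the Il10-deficient array and 212 (2.48%) at least 2-fold lower, together 3.9%. Between pairs of resident control arrays the share past 2-fold was 0.596%, 1.98% and 1.82%, all below the share between both CX3CR1hi arrays. Each pair was counted on its own genes over log2 7, 7551 to 7596 of them, and under another sort label, kit and sex. At 4-fold 21 genes were higher and 22 lower, and at 8-fold 6 and 4. The higher genes were led by the epithelial gene Clca4b, the chitinase-like gene Chil1, the antimicrobial lectins Reg3b and Reg3g, the Ly6 family gene Ly6i and the itaconate enzyme Acod1. The lower genes were led by the pancreatic enzymes Cpb1, Cpa1 and Ctrb1 and by the antimicrobial ribonuclease Ang4. RMA, the method behind the values, pulls low values together, so the fold of a gene that starts near the floor understates the change in its RNA. Of the 122 higher genes 55 (45.1%) were at or under log2 7 in the control array, and of the 212 lower genes 90 (42.5%) were so in the Il10-deficient array.

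**Figure D1:**
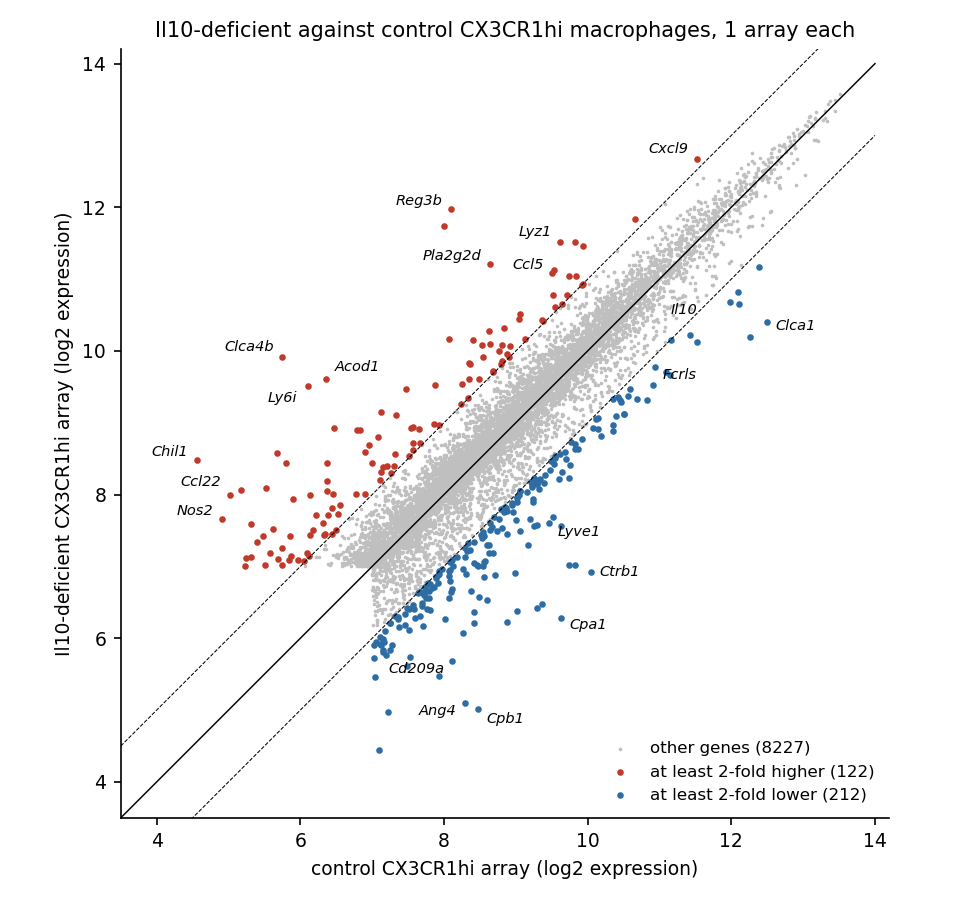
Each point is 1 of 8561 genes, with its log2 expression in the control CX3CR1hi array on the x axis and in the Il10-deficient CX3CR1hi array on the y axis. The solid line marks equal values and the dashed lines 2-fold, with 122 genes above the upper line in red and 212 below the lower line in blue. The empty corner at the lower left holds genes at or under 7 in both arrays, which were left out.

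Genes of antimicrobial and oxidative defence included some of the largest differences. Of 9 measured members of this list over the limit, all 9 were higher in the Il10-deficient array and 4 at least 2-fold, with a median of 0.51. Over all 8561 genes 62.8% were higher. The limit was passed by 6 members in the control array and by 9 in the Il10-deficient array. Acod1, Nos2 and Saa3 passed it only in the latter, so their direction was fixed by the limit. Over all 14 measured members the median was 0.50. Acod1, which makes itaconate in activated macrophages, was at 6.36 in the control and 9.61 in the Il10-deficient array, 9.49-fold higher. Its resident control values were 6.67, 5.70 and 5.82, so the Il10-deficient array lay well above all 4 control arrays. Nos2, the inducible nitric oxide synthase, was at 4.90 and 7.66, with resident controls between 5.03 and 5.13, a 6.74-fold difference that starts at the floor. Saa3, an acute-phase protein made by activated macrophages, was at 5.53 and 8.09, with resident controls between 5.19 and 5.68. Lyz1, a lysozyme gene known from Paneth cells, was at 9.62 and 11.51, with resident controls between 10.29 and 10.46. Which cells in the sample carried the transcripts of this list was not tested. Lyz2, the lysozyme gene of myeloid cells, differed by 0.18, at 13.08 and 13.25. Probe sets of close paralogues such as these can share signal. The 4 measured subunits of the phagocyte oxidase were 0.24 to 0.51 higher, with Ncf1 and Cyba at the upper end. Lcn2, S100a8, S100a9, Slpi and Camp were not over the limit in either array.

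Among inflammatory cytokines 10 of 19 measured genes were over the limit, 3 were at least 2-fold higher and none 2-fold lower, with a median of 0.46. In the control array 7 were over the limit and in the Il10-deficient array 10. Il12b and Tnfsf15 passed it only in the latter, and the median over all 19 was 0.33. Il12b, which encodes p40, a common chain of IL-12 and IL-23, was at 6.13 in the control and 8.0 in the Il10-deficient array, and its resident control values lay between 5.60 and 5.95. Il1a was at 10.66 and 11.83, with resident controls at 10.77, 9.87 and 10.95. Tnfsf15, a TNF family ligand that acts on lymphocytes, was at 6.34 and 7.45, but its resident controls lay between 7.02 and 7.39, close to the Il10-deficient array and above the control one. Among other central cytokines of macrophages, Il1b, Tnf and Osm differed little. Il1b was at 12.75 and 12.84, Tnf at 10.30 and 10.41 and Osm, the IL-6 family cytokine oncostatin M, at 10.43 and 10.73. Il23a, the partner of Il12b in IL-23, was at 5.51 and 6.77, Il6 at 5.30 and 5.61 and Inhba at 4.81 and 5.59, all not over the limit. The limit leaves them out of the counts, although Il23a differed by more than Il1a did. Ebi3, which pairs with Il27 or Il12a, was 0.72 higher, and Il18 was lower, at 9.13 against 9.44.

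Chemokines split into a few that were much higher and a majority that were level. Of 23 measured, 18 were over the limit, 4 were at least 2-fold higher and none 2-fold lower, and the median was 0.04, below that of all genes. The limit was passed by 16 in the control array and by 18 in the Il10-deficient array, with Ccl17 and Ccl22 passing only in the latter. Ccl22 was at 5.01 in the control and 8.0 in the Il10-deficient array, 7.92-fold higher, and Ccl17 was at 5.18 and 8.07, 7.44-fold higher. Both encode ligands of CCR4, a receptor of regulatory and type 2 T cells. The resident control arrays lay at 7.20, 6.61 and 6.82 for Ccl22 and at 7.30, 7.26 and 7.46 for Ccl17, so both genes were low in the control CX3CR1hi array against all other control arrays. The Il10-deficient array was above every resident control in both genes. Ccl5, which attracts T cells, was at 9.50 and 11.08, with resident controls between 9.08 and 9.62. Cxcl9, an interferon-gamma-induced ligand of CXCR3, was at 11.53 and 12.67, with resident controls between 10.98 and 11.69. Cxcl10, another ligand of the same receptor, was 0.80 higher. Chemokines for monocytes and neutrophils were level, with Ccl2 at 10.16 and 10.13, Ccl3 at 13.07 and 13.05, Ccl7 at 11.12 and 11.06 and Cxcl2 at 12.33 and 12.34.

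The promoters of Ccl22 and Ccl17 are shown because both genes, neighbours on mouse chromosome 8, were about equally higher. The sequences are from RefSeq on GRCm38.p6 and run 5′ to 3′ across the start of the gene, with most of each window before it. Capitals mark matches to GGG and CC with any 5 bases between them, a core of the NF-kB motif, on either strand. That motif is loose and occurs in 50.8% of all 32851 promoters of the same length in the table.
Ccl22, chr8:94745434-94745733, plus strand: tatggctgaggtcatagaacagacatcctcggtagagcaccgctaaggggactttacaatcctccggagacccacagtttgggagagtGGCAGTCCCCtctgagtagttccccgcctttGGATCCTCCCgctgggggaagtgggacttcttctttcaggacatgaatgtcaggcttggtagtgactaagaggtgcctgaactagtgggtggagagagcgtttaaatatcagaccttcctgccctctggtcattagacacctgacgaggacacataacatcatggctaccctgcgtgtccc
Ccl17, chr8:94810203-94810502, plus strand: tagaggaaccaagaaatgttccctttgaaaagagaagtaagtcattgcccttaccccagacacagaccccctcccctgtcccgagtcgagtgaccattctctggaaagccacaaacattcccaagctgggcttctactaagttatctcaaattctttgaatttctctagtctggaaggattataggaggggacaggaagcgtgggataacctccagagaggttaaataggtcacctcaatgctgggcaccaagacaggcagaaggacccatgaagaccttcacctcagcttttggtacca
The window of Ccl22 holds 2 matches, both on the minus strand, and that of Ccl17 holds 0. Of the 4 chemokines past 2-fold, 3 had their promoter examined and 2 held a match, and of the 3 cytokines past 2-fold, 0 did. A match describes the letters only.

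Genes of the interferon-gamma response had the highest median of the 27 gene lists examined. All 11 members over the limit were higher in the Il10-deficient array and above all 4 control arrays, and 5 were at least 2-fold higher, with a median of 0.98. Over all genes 62.8% were higher and 55.3% lay above all 4 control arrays. The spread of values differed between CX3CR1hi and resident arrays, and its part in such counts was not tested. Iigp1, an immunity-related GTPase that attacks the vacuoles of intracellular microbes, was at 8.40 in the control and 10.15 in the Il10-deficient array, with resident controls between 7.55 and 8.39. The guanylate-binding proteins act in the same defence. Gbp5 was at 8.35 and 9.83, with resident controls between 7.34 and 8.04. Gbp7 was at 9.74 and 11.04, with resident controls between 9.85 and 10.36. Gbp8 was at 9.54 and 10.61, and Gbp3 and Gbp9 were 0.78 and 0.91 higher. These genes lie in a cluster of close paralogues, and their probe sets can share signal. Nlrc5, the activator of MHC class I genes, was at 9.52 and 10.78, and its 19 probe sets gave differences from 0.84 to 1.48. Cd274, which encodes PD-L1, was 0.98 higher and the transcription factors Irf1 and Irf8 0.61 and 0.38 higher. Ido1 and Socs1 were not over the limit.

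The promoters of Gbp5 and Gbp7 are shown because both genes were more than 2-fold higher, with capitals on the match to GAAA and GAAA with any 2 bases between them, a core of the interferon-stimulated response element. This motif was found on either strand in 3.44% of all 32851 promoters of the table.
Gbp5, chr3:142496684-142496983, plus strand: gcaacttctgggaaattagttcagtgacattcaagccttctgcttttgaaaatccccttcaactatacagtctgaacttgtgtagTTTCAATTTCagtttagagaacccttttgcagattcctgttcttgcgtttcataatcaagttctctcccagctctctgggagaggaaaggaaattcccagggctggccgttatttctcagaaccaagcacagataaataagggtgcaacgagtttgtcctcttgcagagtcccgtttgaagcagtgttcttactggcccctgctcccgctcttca
Gbp7, chr3:142530086-142530385, plus strand: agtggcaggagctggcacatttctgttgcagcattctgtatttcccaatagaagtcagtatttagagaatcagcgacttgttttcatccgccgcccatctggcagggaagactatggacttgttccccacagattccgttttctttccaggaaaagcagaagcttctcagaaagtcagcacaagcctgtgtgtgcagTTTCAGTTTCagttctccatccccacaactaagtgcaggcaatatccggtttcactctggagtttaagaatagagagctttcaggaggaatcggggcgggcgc
Each window holds 1 match, on the minus strand, with its leftmost base at position -165 in Gbp5 and -53 in Gbp7, counted from the start of the gene. Promoters of 2 of the 5 members past 2-fold could be read, and both held a match. For the 4 antimicrobial genes past 2-fold the motif was TGACTCA, the AP-1 site, which is in 5.2% of all promoters, and 0 of 3 promoters held it.

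Genes for peptide loading onto MHC class I were higher in smaller steps. Of 12 over the limit 11 were higher, 1 at least 2-fold, with a median of 0.43, where 62.8% of all 8561 genes were higher. Tap1, a chain of the peptide transporter, was at 9.64 and 10.65, and its partner Tap2 was 0.69 higher. The immunoproteasome subunits Psmb9, Psmb8 and Psmb10 were 0.93, 0.85 and 0.48 higher. Type I interferon response genes differed less, with a median of 0.20 over 17 genes and none past 2-fold. The antiviral genes Oasl1, Rsad2 and Ifit2 were 0.80, 0.75 and 0.71 higher, while Ifit1 and Oas2 were at -0.14 and Oasl2, Ifih1 and Irf7 at 0.09 to 0.10. For Oasl1 the Il10-deficient array, at 8.54, lay within the resident controls of 8.25 to 8.92. The control CX3CR1hi array was below them at 7.74. MHC class II genes were abundant in both arrays and had a median of 0.25 with none past 2-fold, and H2-Oa and the class II activator Ciita were 0.89 and 0.63 higher. Among costimulatory genes Pdcd1lg2, the other PD-1 ligand, was at 6.83 and 8.90, 4.20-fold higher, with resident controls between 5.73 and 6.70. It was the only one of 11 past 2-fold. Pdcd1lg2 passed the limit only in the Il10-deficient array, so its direction was fixed by the limit. The costimulatory receptor gene Cd40 was 0.72 higher.

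Several genes for surface proteins of myeloid cells were among those past 2-fold, and the following were picked from them. Ly6i was at 6.10 in the control and 9.52 in the Il10-deficient array, 10.7-fold higher, with resident controls between 5.77 and 6.17. Cd300lf, an inhibitory receptor for lipids, was at 5.90 and 7.94, with resident controls between 5.15 and 5.31. Trem1, a receptor that amplifies inflammatory signals, was at 5.32 and 7.59, with resident controls between 4.87 and 5.22. In these 3 genes the 4 control arrays lay together and the Il10-deficient array apart. All 3 passed the limit only in the Il10-deficient array and were picked for being past 2-fold. Their direction against the control CX3CR1hi array was therefore fixed in advance. Clec4e, or Mincle, which binds mycobacterial glycolipid, was at 7.47 and 9.46, but its resident controls were scattered at 8.68, 6.56 and 8.60. It was the only one of 15 NF-kB targets and inhibitors past 2-fold, and all 15 were above 0 with a median of 0.33. Over all 8561 genes 62.8% were above 0. The inhibitors Nfkbia and Tnfaip3 were 0.33 and 0.11 higher. Of 19 pattern recognition genes 1 was past 2-fold, the peptidoglycan sensor Nod1 at 8.79 and 9.82, and the median was 0.21. Tlr2 and Tlr4, receptors for bacterial lipoproteins and lipopolysaccharide, were 0.48 and 0.31 higher.

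Markers of other blood cells moved in part with these genes. Of 8 monocyte markers over the limit 3 were at least 2-fold higher, Ly6i, Cd300lf and the coagulation factor F10, and 1 was 2-fold lower, the transglutaminase F13a1, with a median of 0.43. In the control array 5 of the markers were over the limit and in the Il10-deficient array 8. Ly6i, Cd300lf and F10 passed it only in the Il10-deficient array, so their direction was fixed by the limit. The median over all 12 measured markers was 0.32. Ccr2, the chemokine receptor that monocytes use to leave the marrow, was 0.33 higher and Plac8 was at -0.36. The summed monocyte list had a mean log2 level of 7.37 in the control and 7.90 in the Il10-deficient array, against 7.37 to 7.66 in the resident controls. Of 14 dendritic cell markers 9 were over the limit, 4 above and 5 below 0, with a median of -0.29, 2 at least 2-fold higher and 1, Cd209a, at least 2-fold lower. Clec9a, a receptor for dead cells, was at 5.80 and 8.44, and Ccr7, the homing receptor for lymph nodes, at 6.38 and 8.44. Both passed the limit only in the Il10-deficient array, and Cd209a only in the control CX3CR1hi array. The direction of all 3 was fixed by the limit. Resident controls lay between 5.65 and 6.34 for Clec9a and between 6.64 and 8.07 for Ccr7. Batf3, a transcription factor of dendritic cells, was 0.72 higher, while Cd24a and the plasmacytoid marker Siglech were at -0.65 and -0.74. Flt3, Zbtb46 and Xcr1, which define dendritic cells, were not over the limit in either array, at 4.37 to 5.62. Of 14 neutrophil markers 3 were over the limit, all higher and above all 4 control arrays. Among all 8561 genes 62.8% were higher and 55.3% above all 4 control arrays. Mmp9 was 1.71 higher, the growth factor receptor Csf3r 0.72 and Ly6g 0.16, while S100a8, S100a9, Mpo, Elane and Cxcr2 lay between 4.32 and 5.19. The 7 eosinophil markers were all not over the limit, and of the 13 T cell and innate lymphoid markers only Il7r was over it, with Cd3e at 4.82 and 5.43. Whether the number of monocytes, dendritic cells or neutrophils in the sort contributed to the differences above was not tested.

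**Figure D2:**
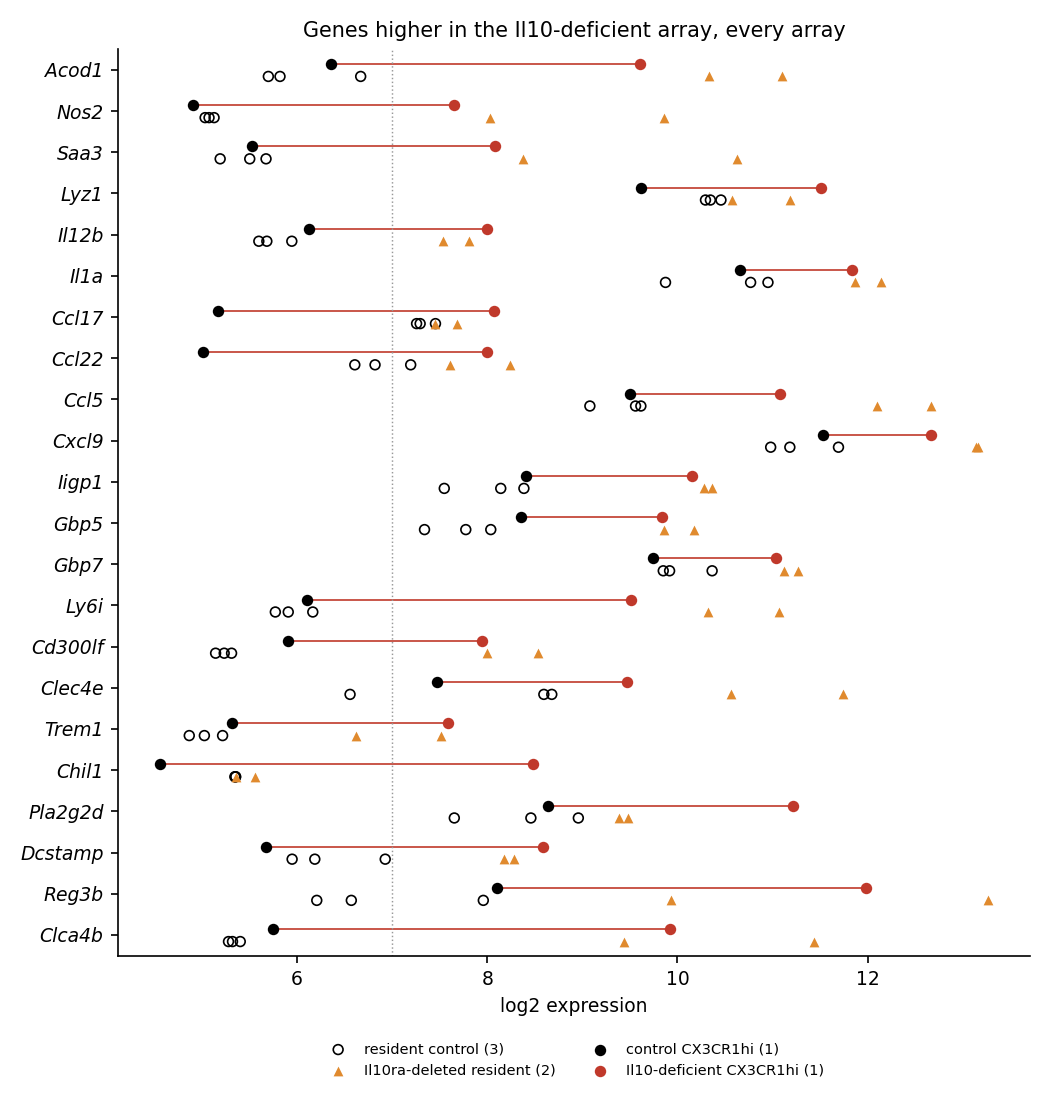
Log2 expression on the x axis of 22 genes that were higher in the Il10-deficient array, with filled circles for the control and Il10-deficient CX3CR1hi arrays joined by a line, open circles for the 3 resident control arrays and triangles for the 2 Il10ra-deleted resident arrays. The dotted line marks log2 7. Ccl17 and Ccl22 show the control CX3CR1hi array far left of the open circles, and Chil1 shows both triangles at 5.56 and 5.36 beside the open circles.

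Genes of secreted enzymes and lipid handling were also among those with the largest differences. Chil1, a chitinase-like protein of activated macrophages and epithelium, was at 4.56 in the control and 8.48 in the Il10-deficient array, 15.1-fold higher, with resident controls between 5.35 and 5.36. Pla2g2d, a secreted phospholipase of resident lymphoid macrophages and dendritic cells, was at 8.64 and 11.21, with resident controls between 7.65 and 8.96. Procr, the endothelial protein C receptor, was at 6.47 and 8.92, and Slc7a11, the cystine transporter that feeds glutathione synthesis, at 8.08 and 10.17. Dcstamp, a protein needed for macrophage fusion, was at 5.67 and 8.58, with resident controls between 5.95 and 6.93. Atp6v0d2, a proton pump subunit also tied to fusion, was at 6.37 and 8.19, with resident controls between 6.20 and 6.52. Atp6v0d2 passed the limit only in the Il10-deficient array, so its direction was fixed by the limit. It was the only one of 19 lysosomal genes past 2-fold, although all 19 were above 0 with a median of 0.23. Over all 8561 genes 62.8% were above 0.

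Dcstamp, Slc7a11 and Atp6v0d2 were looked at together with 10 other genes of lipid-laden and fusing macrophages, a list put together after the values were seen. All 13 were over the limit, 9 were at least 2-fold higher and the median was 1.28, which describes how the list was chosen and supports nothing. Gpnmb, a glycoprotein of lipid-loaded macrophages, was at 9.94 and 11.46, with resident controls between 8.71 and 9.58. Gdf3, a TGF-beta family member, was at 6.89 and 8.59. The fatty acid binding protein Fabp5 and the lipase Lpl were 1.05 and 1.12 higher. Not all members differed so much, since Trem2 and Itgax were 0.39 and 0.30 higher and Cd9 was at -0.14. Matrix enzymes were mixed as well. Mmp9 was at 7.09 and 8.80 and Mmp19 at 8.55 and 9.92, the 2 of 17 matrix and growth factor genes past 2-fold, while Mmp12, Mmp13 and Mmp14 were 0.50, 0.14 and 0.53 higher. Among complement genes factor B (Cfb) was at 8.62 and 10.28, with resident controls between 7.81 and 8.17, and the properdin gene Cfp was 0.54 higher.

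Some of the genes past 2-fold higher are known from the epithelium. Clca4b, a chloride channel accessory protein of colonocytes, was at 5.75 in the control and 9.92 in the Il10-deficient array, 18.0-fold higher, and its paralogue Clca4a at 6.95 and 8.70. Reg3b and Reg3g, lectins that gut epithelium secretes against bacteria, were at 8.10 and 11.98 and at 8.0 and 11.74, or 14.7-fold and 13.3-fold higher. Resident controls lay between 5.28 and 5.40 for Clca4b, between 6.21 and 7.96 for Reg3b and between 6.30 and 7.47 for Reg3g. Duoxa2 and Duox2, which form the epithelial oxidase that makes hydrogen peroxide, were 1.37 and 0.98 higher. In these genes the Il10-deficient array was above all 4 control arrays, while the mean of the epithelial markers was lower in it by values given above. Of the 19 epithelial markers over the limit 18 were lower, with a median of -0.59, and the keratin Krt20 alone was above 0, at 0.09. Over all genes 3184 of 8561 were below 0. Reg3b and Reg3g are close paralogues, as are Clca4a and Clca4b, and each pair can share signal.

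Other genes known from epithelial defence were among those past 2-fold lower. Ang4, the ribonuclease of Paneth and goblet cells, was at 8.29 in the control and 5.10 in the Il10-deficient array, 9.15-fold lower. Its resident controls lay at 4.97, 5.38 and 7.44, so the Il10-deficient array was within the range of control arrays and the control CX3CR1hi array at the top of it. Clca1, a goblet cell protein of mucus, was at 12.50 and 10.40, with resident controls at 9.52, 11.37 and 12.06. Retnlb, a goblet cell antimicrobial, was at 9.63 and 7.56, with resident controls at 5.30, 7.38 and 8.85. Mptx1, a pentraxin of the colonic epithelium, was at 12.27 and 10.19, with resident controls at 10.02, 11.13 and 11.50. All 4 genes were spread widely among control arrays. Wfdc2, a protease inhibitor, was at 9.20 and 7.66, below its resident controls of 8.38 to 9.16. Of the 13 epithelial defence genes over the limit, a list also put together after the values were seen, 5 were 2-fold higher and 6 were 2-fold lower. Among general epithelial markers the fatty acid binding protein Fabp2 was at 10.15 and 8.92 and the chloride exchanger Slc26a3 at 11.16 and 10.15, and Muc2, the main mucin of the colon, was at 12.90 and 12.32. The part of epithelial RNA in the sample in these differences was not tested.

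Pancreatic digestive enzymes made up 9 of the 20 named genes with the largest negative differences, and their levels set the control CX3CR1hi array apart from all other arrays. The carboxypeptidase gene Cpb1 was at 8.47 in the control and 5.02 in the Il10-deficient array, 11.0-fold lower, and at 4.92 to 5.02 in the resident controls. Cpa1 was at 9.64 and 6.28, and at 5.36 to 5.65 in the resident controls. The chymotrypsinogen gene Ctrb1 was at 10.04 and 6.93, and at 4.83 to 4.94 in the resident controls. In Cpa1 and Ctrb1 the Il10-deficient array also lay above the resident controls, though far below the control CX3CR1hi array. The pancreatic ribonuclease Rnase1 was at 9.37 and 6.47, the colipase gene Clps at 9.82 and 7.02 and the lipase gene Cel at 7.10 and 4.44. Of 22 such genes, listed after the values were seen, 17 were measured, 12 were over the limit, all 12 were below 0 and 11 were past 2-fold. All 12 were over the limit in the control CX3CR1hi array and 2 in the Il10-deficient array, so most of them could only be below 0. The mean log2 level of the 17 was 7.75 in the control CX3CR1hi array, 5.79 in the Il10-deficient array, 5.54 to 5.59 in the resident controls and 5.28 to 5.36 in the Il10ra-deleted arrays. Which cells carried these transcripts was not tested.

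Some genes that macrophages express were lower. Cd209a, a lectin that binds mannose and fucose, was at 8.12 in the control and 5.69 in the Il10-deficient array, 5.39-fold lower, and its resident controls were at 8.63, 8.83 and 9.65. Cd209f was at 8.38 and 6.66, but its resident controls were at 6.92, 7.41 and 5.35 and overlapped both. Lyve1, a hyaluronan receptor of vessel-associated macrophages and lymphatic endothelium, was at 9.46 and 7.60, with resident controls at 10.56, 10.30 and 8.20. Fcrls, a gene of the Fc receptor-like family typical of tissue-resident macrophages, was at 10.93 and 9.78, with resident controls at 10.86, 10.91 and 10.73, which lay together. F13a1 was at 10.35 and 8.96, with resident controls at 10.99, 10.77 and 9.89. Folr2, a folate receptor of perivascular macrophages, and Cd163, the hemoglobin scavenger receptor, were lower without reaching 2-fold, at -0.82 and -0.67. In Cd209a, Lyve1, Fcrls, F13a1 and Folr2 the Il10-deficient array lay below all 4 control arrays. Over all genes 6.3% lay below all 4, and of the 212 lower genes 115 (54.2%) did, a count from the same contrast.

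**Figure D3:**
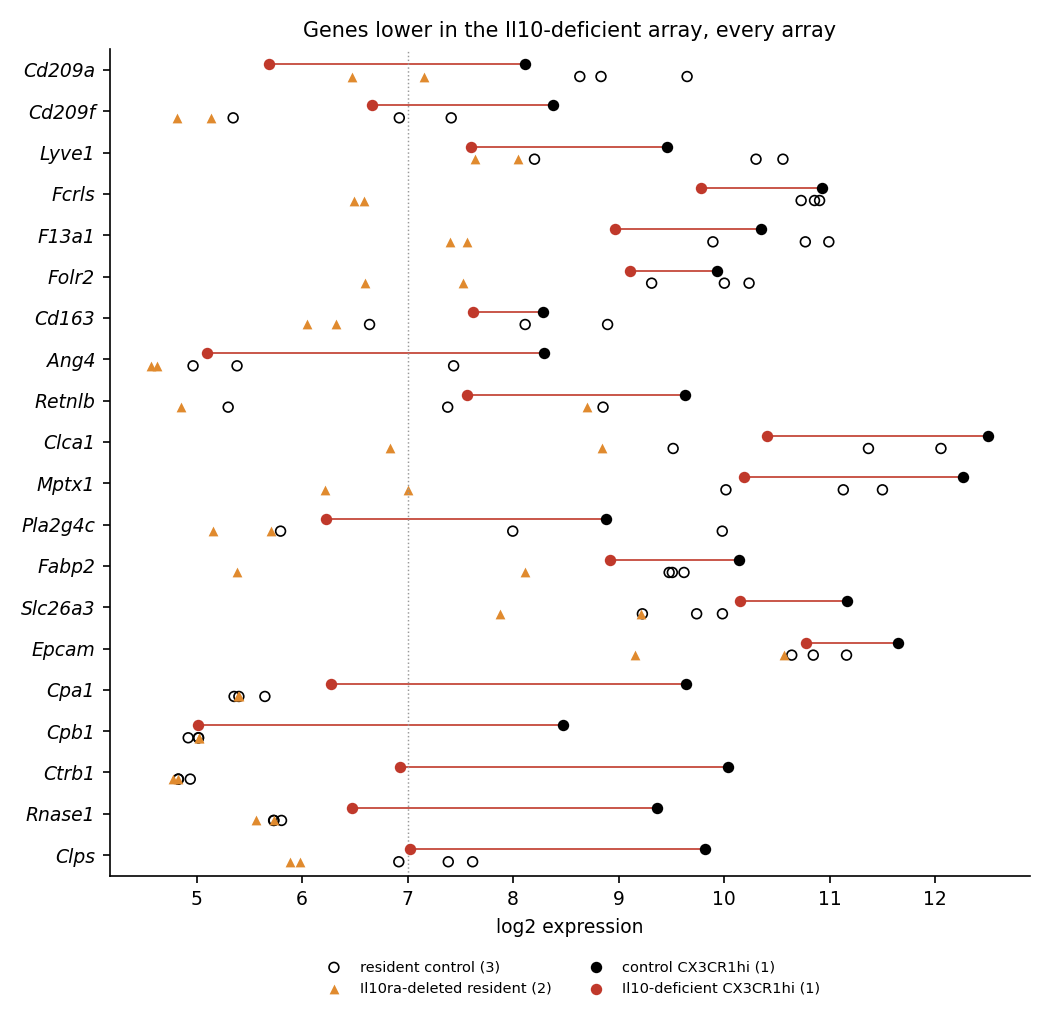
Log2 expression on the x axis of 20 genes that were lower in the Il10-deficient array, drawn with the same symbols as the plot of higher genes. In the macrophage genes at the top the open circles of the resident controls mostly lie near the control CX3CR1hi array, whereas in the pancreatic enzyme genes at the bottom they lie near or left of the Il10-deficient array, as for Cpb1 at 4.92 to 5.02.

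Most genes of resident macrophage identity were level. Of 28 measured, 2 were at least 2-fold lower, Lyve1 and Fcrls, 0 were 2-fold higher and the median was 0.16. The complement genes C1qa, C1qb and C1qc were 0.33, 0.17 and 0.15 higher, Mrc1, the mannose receptor, was at -0.10 and the prostaglandin-degrading enzyme Hpgd at -0.22. The protease Adamdec1 and the surface protein Cd4, both typical of gut macrophages, were 0.70 and 0.62 higher. Of 18 scavenging and efferocytosis genes 2 were past 2-fold, both lower, Cd209a and Cd209f, and the list median was 0.26. Both genes passed the limit only in the control CX3CR1hi array, so their direction was fixed by the limit. Clec7a, or Dectin-1, was 0.81 higher, the cholesterol exporter Abcg1 0.67 higher and Gas6, the bridge to dying cells, at -0.44. Genes of alternative activation had a median of 0.07 over 6 genes with none past 2-fold, and Retnla, Arg1 and Chil3 were not over the limit. The 4 genes of the Fc receptor list over the limit differed by 0.05 to 0.28, and Fcgr1, which is on the macrophage marker list instead, by 0.50.

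Lists of metabolism, proliferation and stress had medians between -0.35 and 0.39, with members on both sides of 0 in most of them. All 16 oxidative phosphorylation genes were lower, by -0.12 for Sdha to -0.42 for Ndufb5, with a median of -0.29, and none was past 2-fold. Over all genes 3184 of 8561 were below 0. The control CX3CR1hi array had the higher mean level of this list, 10.51 against 10.23 in the Il10-deficient array and 10.02 to 10.24 in the resident controls. Cholesterol synthesis genes had a median of -0.23 over 15 genes, with the squalene epoxidase gene Sqle at -0.61 and Hmgcs1, an early enzyme of the pathway, at -0.39. Cell cycle genes had a median of -0.35 over 16 genes, with the helicase subunit Mcm6 at -0.79 and the cyclin gene Ccnb2 at -0.73. Glycolysis and hypoxia genes had a median of 0.16 over 19 genes, with the lactate exporter Slc16a3 and the angiogenic factor Vegfa 0.95 and 0.83 higher. Eicosanoid genes had a median of 0.20 over 11 genes, with the cyclooxygenase Ptgs2 0.48 higher and the lipoxygenase Alox5 at -0.47. Immediate early and heat shock genes had a median of 0.18 over 20 genes, and the chaperones Hsph1 and Dnajb1 were both 0.99 higher, at levels of 10.75 and 10.60 that were still below the resident controls. Iron and heme genes had a median of 0.25 over 12 genes, with Hmox1 the only one past 2-fold and the transferrin receptor Tfrc at -0.52. Complement and coagulation genes had a median of 0.39 over 12 genes, or 0.17 over those above log2 8, with 2 past 2-fold higher, F10 and Cfb, and 1 lower, F13a1.

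**Figure D4:**
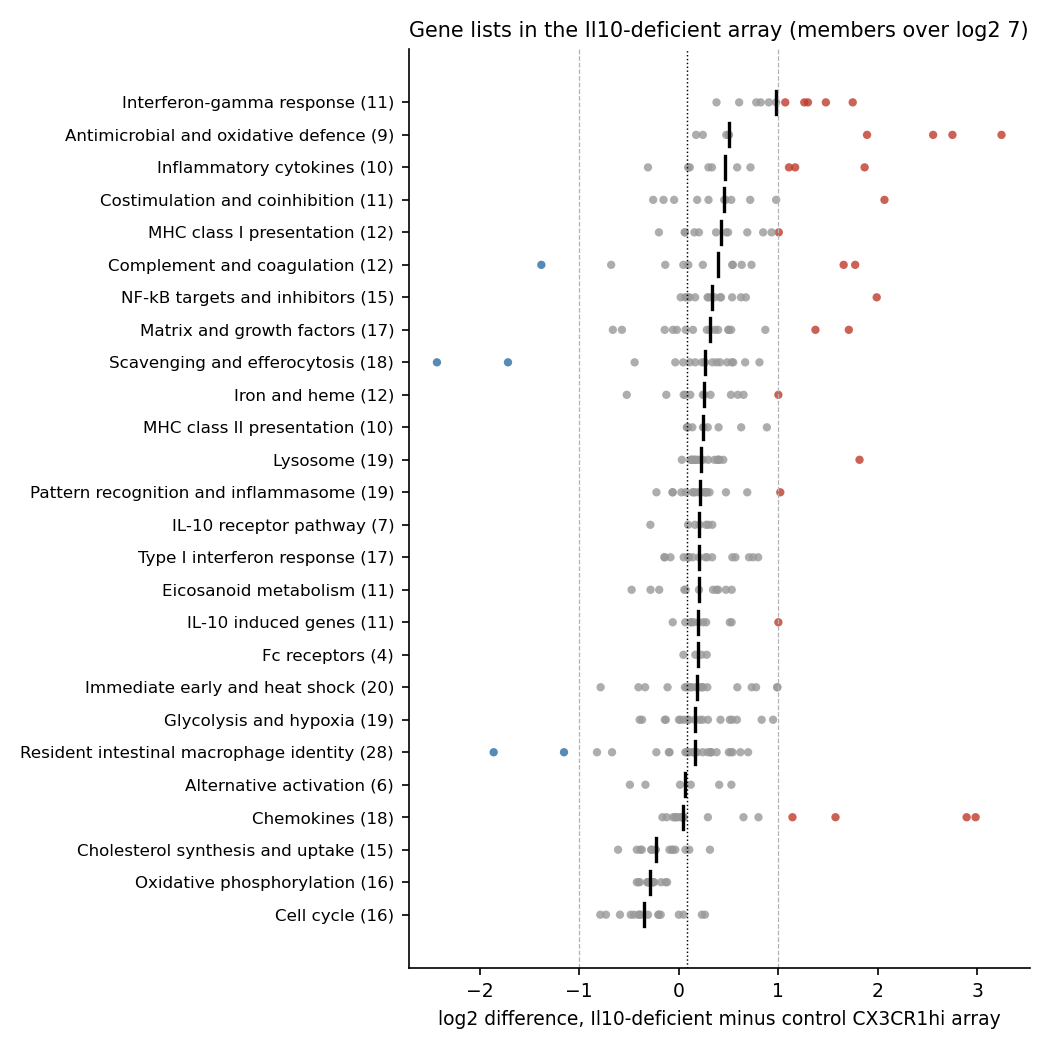
Each point is a gene of a list, placed by its log2 difference, Il10-deficient minus control CX3CR1hi array, with red for at least 2-fold higher and blue for at least 2-fold lower, bars for list medians and the number of genes over log2 7 in brackets. The dotted line is the median of all 8561 genes, 0.085. The interferon-gamma response has the highest median, 0.98, and the cell cycle list the lowest, -0.35.

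Other cell types showed shifts of their own in the sorted RNA. The 4 fibroblast and muscle markers over the limit were all lower, with a median of -0.69, where 3184 of all 8561 genes were below 0. They were led by the proteoglycan Dcn at 10.58 and 9.67, and Col1a1, Col1a2 and Col3a1 were not over the limit. Of 14 B and plasma cell markers 5 were over the limit, with 3 above and 2 below 0 and a median of 0.16. The antigen receptor chain Cd79b was 0.50 higher, and the joining chain Jchain of secreted antibodies was at 11.43 and 10.94. Of 12 markers of endothelium and glia 2 were over the limit, Pecam1 at 0.30 higher and Lyve1, which macrophages also express, at -1.86, while Cdh5, Kdr and Vwf were not. The mast cell list had 1 gene over the limit, Kit, at -0.29, and the 4 measured erythroid markers were all not over it. The part of these cells in other differences was not tested.

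The resident arrays give another loss of the same pathway, with Il10ra deleted by Cre in Cx3cr1-expressing cells, and share no array with the comparison above. On the same 8561 genes the mean of the 2 Il10ra-deleted arrays was at least 2-fold above the mean of the 3 resident controls for 166 genes (1.94%) and at least 2-fold below it for 274 (3.2%). Of the 122 genes higher with Il10 deficiency 83 were also 2-fold higher there, 68% of the 122 and 50% of the 166. Of the 212 lower genes 120 were also 2-fold lower there, 56.6% of the 212 and 43.8% of the 274. None of the 122 was 2-fold lower there, and 1 of the 212, the unnamed locus G530011O06Rik, was 2-fold higher. The side of 0 was the same for 115 of the 122, where 57.9% of all genes were above 0, and for 205 of the 212, where 41.5% were below 0. The median over the 122 higher genes was 1.37 with Il10 deficiency and 1.43 with Il10ra deletion, and over the 212 lower genes -1.20 and -1.13. The genes were chosen on the Il10 difference, so these medians are not alike in their selection. Genes 2-fold lower in both comparisons include epithelial ones such as Fabp2, Cftr and Guca2a. The mean of the 20 epithelial markers was 10.18 and 8.48 in the Il10ra-deleted arrays, against 10.05 to 10.53 in their controls. The median difference of the 19 over the limit was -0.87 there and -0.59 between the CX3CR1hi arrays. The part of epithelial RNA in the shared genes was not tested.

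Several genes were far apart between the comparisons, and no difference between them was tested. Chil1 differed by 3.92 with Il10 deficiency and was at 5.56 and 5.36 in the Il10ra-deleted arrays against 5.35 to 5.36 in their controls. Ccl17 was at 7.46 and 7.68 in the Il10ra-deleted arrays, against 7.26 to 7.46 in their controls, although it differed by 2.90 between the CX3CR1hi arrays. Mmp9 was 1.71 higher with Il10 deficiency and at a difference of -0.88 in the Il10ra-deleted arrays, at 5.89 and 5.18 against 7.02, 6.48 and 5.74. Pla2g2d was 2.57 higher with Il10 deficiency and at 9.39 and 9.48 in the Il10ra-deleted arrays, against 7.65 to 8.96 in their controls. On the other side Fcrls was at 6.49 and 6.59 with Il10ra deletion, against 9.78 in the Il10-deficient array, and F13a1 at 7.57 and 7.40 against 8.96. Saa3 at 10.62 and 8.38, Acod1 at 11.10 and 10.33 and Clec4e at 11.74 and 10.56 were above the Il10-deficient array in both Il10ra-deleted arrays. The pancreatic enzymes had a median of -2.64 in the CX3CR1hi comparison and -0.06 in the resident one. Sort label, kit, sex and the Cx3cr1 allele differ between the comparisons and cannot be told apart from the genotype in them.

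**Figure D5:**
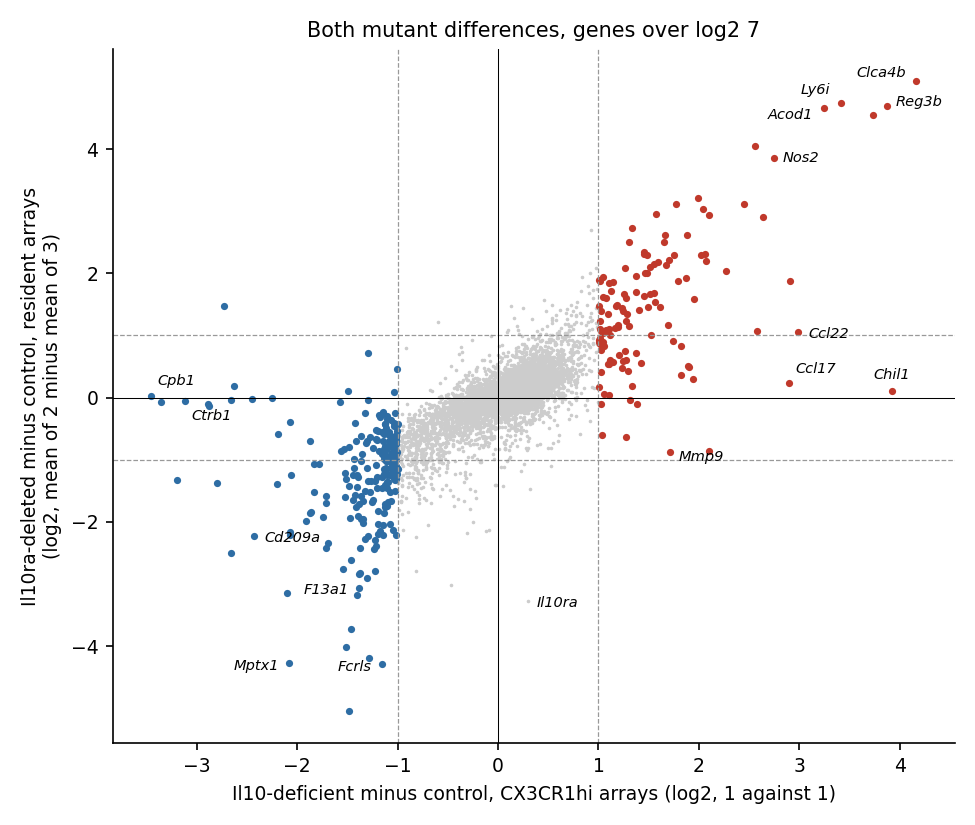
Each point is 1 of 8561 genes, with the Il10-deficient minus control difference of the CX3CR1hi arrays on the x axis and the Il10ra-deleted minus control difference of the resident arrays on the y axis, both in log2. Red and blue mark genes at least 2-fold higher and lower on the x axis, and dashed lines mark 2-fold. Genes such as Acod1 and Ly6i are high on both axes, while Chil1 and Cpb1 lie far out on the x axis and near 0 on the y axis.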

How the data were processed

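Total RNA of sorted colonic macrophages was hybridised to 7 Affymetrix arrays (biotin label). Values were deposited by the authors in log2 units, and the submitters' processing notes name RMA and Partek, without versions. Joint normalization of the arrays and the genome build were not given in the sources used here. Arrays carry no depth, and their number limits the precision. The table has 35399 rows with 0 missing values. The platform annotation pairs 21789 rows with 1 gene symbol, 1621 with several and 11989 with none, and only the first were used. Of these, 21698 matched the RefSeq gene table of GRCm38.p6 by gene ID, which changed 0 symbols. A gene with more than 1 row (999 genes) was represented by its brightest row, by the mean of all 7 arrays, giving 19938 genes.

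Differences were taken as Il10-deficient minus control for genes over log2 7 in at least 1 of both CX3CR1hi arrays (Python 3.11.15, pandas 2.3.3, numpy 2.4.6, figures with matplotlib 3.10.9), and the counting was tested on simulated data. With 1 array a side no test was run. No pair of the 7 arrays (21 pairs) was identical. Resident arrays were numbered in deposit order, as names. Whether they came from separate animals is not in the labels, so their spread may be technical.

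The arrays, the gene lists and the rule for named genes were chosen with earlier results of these data known. The 27 gene lists have 422 of 456 places measured and the 12 marker lists 149 of 165. The 3 lists of pancreatic enzymes, epithelial defence genes and lipid-laden macrophages were added after the values were seen. The rule named Il10, Il10ra, the 20 largest differences in each direction without predicted genes, clone names, small RNAs, olfactory or vomeronasal receptors and antigen receptor segments, every list member past 2-fold or else the 3 with the largest difference, and the macrophage markers. It gave 121 genes. Other genes in the text were chosen after their values were seen, to describe their list. Promoter sequences and motif matches come from the RefSeq promoter table (GRCm38.p6). The alternatives tried were other limits, folds, scalings and rules for the row of a gene.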

Additional observations from a re-analysis of the deposited data

Results flagged for a closer look

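Rows that the annotation pairs with several gene symbols were not used in the comparison, and some of them differed as well. Of 1621 such rows 749 were over log2 7 in at least 1 of both CX3CR1hi arrays, and 9 (1.2%) were at least 2-fold higher and 12 (1.6%) at least 2-fold lower in the Il10-deficient array, with no gene named from them. Rows with no symbol gave 71 higher and 81 lower of 3792 over the limit. No group of the series is large enough to look for a single outlying array.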

How the results depend on the processing

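The counts of genes depend on the fold that is counted. At 1.5-fold 443 genes were higher and 659 lower, and at 3-fold 42 and 34. Under the other settings, which were limits of log2 6 and 8, no limit, centring, quantile normalization of both arrays and 2 other rules for the row of a gene, 89 to 138 genes were higher and 150 to 244 lower, all within 1.5 times the values reported. The median difference over all genes, 0.085, was 0.13 with each array centred on its median and 0.0364 after quantile normalization. Of the 66 named genes past 2-fold, 65 remained past it with centring, without Slc26a3, and 62 after quantile normalization, without Gbp8, Hmox1, Nod1 and Tap1, whose differences lay between 1.00 and 1.07. Of all 334 genes 300 and 319 remained. No named gene past 2-fold changed direction under these settings. The median of the chemokine list, 0.04, was -0.01 after quantile normalization, and that of the sex-linked transcripts, -0.02, was 0.03 with centring. Other list medians that moved by more than 1.5 times kept their side of 0. Over log2 8 complement and coagulation went from 0.39 to 0.17 and dendritic cells from -0.29 to -0.48. Over log2 6 endothelium and glia went from -0.78 to -0.26, B and plasma cells from 0.16 to 0.04, type I interferon from 0.20 to 0.13 and alternative activation from 0.07 to 0.12. Quantile normalization gave 0.13 for the IL-10 receptor pathway, 0.12 for eicosanoid, 0.10 for glycolysis, 0.08 for B and plasma cell and 0.0075 for alternative activation genes. Centring gave 0.12 for the last, and the mean of all rows 0.10 for glycolysis. No paired analysis was possible because the labels give no replicate numbers and each side has 1 array, and for the same reason no array could be left out. Single arrays cannot separate the genotype from differences between animals, sorts or preparations.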

Other observations

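Other genes past 2-fold, all chosen after their values were seen, are given here as single genes, with no count of any group behind them. The guanylate-binding protein genes Gbp4 and Gbp2b were at 9.82 and 9.84 in the control and 11.52 and 11.04 in the Il10-deficient array. Il18bp, which binds and blocks IL-18, was at 8.84 and 10.32, with resident controls between 8.35 and 8.49. Zbp1, a sensor of nucleic acids that triggers cell death, was at 8.69 and 9.71. Hcar2, a receptor for niacin and the ketone body beta-hydroxybutyrate, was at 7.32 and 9.11. Il22ra2, the soluble inhibitor of IL-22, was at 5.40 and 7.34, with resident controls at 5.79, 4.84 and 5.33 and the Il10ra-deleted arrays at 5.33 and 5.91. Il12rb1, the receptor chain shared by IL-12 and IL-23, was at 5.58 and 7.19, and Klrk1, which encodes NKG2D, at 5.48 and 7.43. Arg2, the mitochondrial arginase, was at 6.38 and 7.72, while Arg1 was not over the limit.

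Of the genes past 2-fold lower, 4 known from enteroendocrine cells were picked. Chga, a protein of their secretory granules, was at 7.77 and 6.40, the proglucagon gene Gcg at 8.60 and 7.30, the peptide YY gene Pyy at 9.06 and 8.05 and Insl5 at 8.96 and 7.75. For Gcg the resident controls lay at 7.13, 6.80 and 6.80, below both CX3CR1hi arrays. Another 4, picked in the same way, encode matrix proteins. Postn was at 9.39 and 8.17, Thbs4 at 10.39 and 9.09, Dpt at 8.84 and 7.76 and Aspn at 7.64 and 6.63. In Postn, Thbs4, Dpt and Aspn the Il10-deficient array lay below all resident controls. It lay below all 4 control arrays for 54.2% of the 212 lower genes and for 6.3% of all genes.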
